A study of Mus musculus with 12 samples.

Results

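DNA replication was followed through 45 genes in invariant natural killer T (iNKT) cells of the mouse thymus, T cells that recognise lipids on CD1d. The genes were taken from a list of symbols, grouped by function, and each of the 45 symbols was found among the 48672 Ensembl gene IDs of the RNA files. RNA was sequenced from 12 libraries in 4 groups of 3, namely Bcl6KO stage 1, WT stage 1, Bcl6KO stage 0 and WT stage 0, from thymi of C57Bl/6J mice aged 4 to 5 weeks, with 4 to 7 mice pooled. Bcl6KO stands for mice labelled CDCre;Bcl6F/F, in which Cre recombinase removes a floxed part of Bcl6, a transcriptional repressor; the labels spell the Cre line this way and do not name its promoter. Stage 0 cells were sorted as Tetramer+TCRb+CD24+CD44- and stage 1 cells as Tetr+TCRb+CD24-CD44-. The labels number the libraries within a group and do not say that each came from its own pool of mice, so the p-values below measure the spread between these libraries, which may be technical.

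Chromosomal DNA is copied once per cell cycle. The origin recognition complex with CDC6 and CDT1 loads the MCM2-7 helicase in G1, CDC45 and the GINS complex activate it in S phase, and polymerases, a sliding clamp, its loader and DNA ligase copy and seal the strands while ribonucleotide reductase and thymidylate synthase supply the nucleotides. In the thymus these genes are known to be high in dividing precursors, and iNKT cells pass through a wave of division soon after selection.

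Expression was measured as deposited values, whole numbers that behave as reads multiplied by 1 scaling factor per library and rounded. Levels are compared between genes only per kb of exon. Library totals ran from 4129919 to 8038717, and the steps between low values put the reads behind them at about 2820000 and 3800000 in Bcl6KO stage 0 libraries 2 and 3 and between 4890000 and 6500000 in the others. Bcl6 itself had 74, 282 and 126 in Bcl6KO stage 1 and 44, 21 and 42 in WT stage 1, and 2559, 3466 and 3312 in Bcl6KO stage 0 and 1875, 1100 and 1398 in WT stage 0. Bcl6 was thus no lower in the libraries labelled Bcl6KO: its log2 fold change against WT was 1.99 at stage 1 (limma adjusted p = 0.873) and 1.12 at stage 0 (limma adjusted p = 0.335). The values cover the whole gene, and the files do not say which part is deleted, so they do not check a deletion of part of it, and genotypes are given throughout as labelled. Cd24a, which the sort used, was at 4 to 67 in the 6 stage 1 libraries and at 758 to 1566 in the 6 stage 0 libraries. All 8 genes listed as iNKT markers (Cd3e, Cd3g, Trac, Trbc2, Zbtb16, Egr2, Slamf6 and Cd69) were present in every group. They include CD3 and T cell receptor chains, so their presence does not tell iNKT cells from other T cells. Zbtb16 was at 46 to 474 in Bcl6KO stage 0 and 492 to 1065 in WT stage 0. Sp100 took 10.8% to 23.9% of the value in Bcl6KO stage 0 libraries and at most 5.03% in WT stage 0 libraries, and Bcl6KO stage 0 library 2 also had 7598 of the endothelial gene Pecam1, against 440 to 1095 in the other 11 libraries.

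None of the 45 genes passed the test in any comparison (limma on log2(value + 1), Benjamini-Hochberg adjusted over 15739 genes, threshold 0.05), where between 0% and 4.76% of all genes did, although all 45 entered it. A p above the threshold does not show that a gene was unchanged. On the deposited scale their values lay mostly on the higher side in Bcl6KO and in stage 1. Between genotypes, 33 of 45 had a log2 fold change above 0 at stage 1 and 35 of 45 at stage 0, where 47% and 41% of all genes tested did. With values scaled to library totals, 21 of 45 were above 0 at stage 0, where the median of all genes was -0.69. Between stages, 32 of 45 were above 0 in Bcl6KO and 33 of 45 in WT, against 59.6% and 54.2% of all genes. In Bcl6KO the median of the 45 between stages was 0.03 above that of all genes, and the sign of this distance is not settled. In bulk RNA, more cells in S phase and more of each RNA per cell cannot be told apart.

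The summed value of the 45 genes was 16451, 20874 and 18059 in Bcl6KO stage 1 and 15579, 9827 and 15346 in WT stage 1. It was 16513, 13465 and 23413 in Bcl6KO stage 0 and 11447, 10648 and 9955 in WT stage 0. At each stage every Bcl6KO library lay above every WT library on this scale. As a share of the library's total, the Bcl6KO stage 1 libraries (0.376% to 0.412%) again lay above the WT stage 1 libraries (0.223% to 0.364%), while Bcl6KO stage 0 (0.168% to 0.344%) overlapped WT stage 0 (0.198% to 0.253%). Of the 45 genes, 21 had their highest group mean in Bcl6KO stage 1, 18 in Bcl6KO stage 0, 4 in WT stage 1 and 2 in WT stage 0, and 29 had their lowest mean in WT stage 0.

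**Figure D1:**
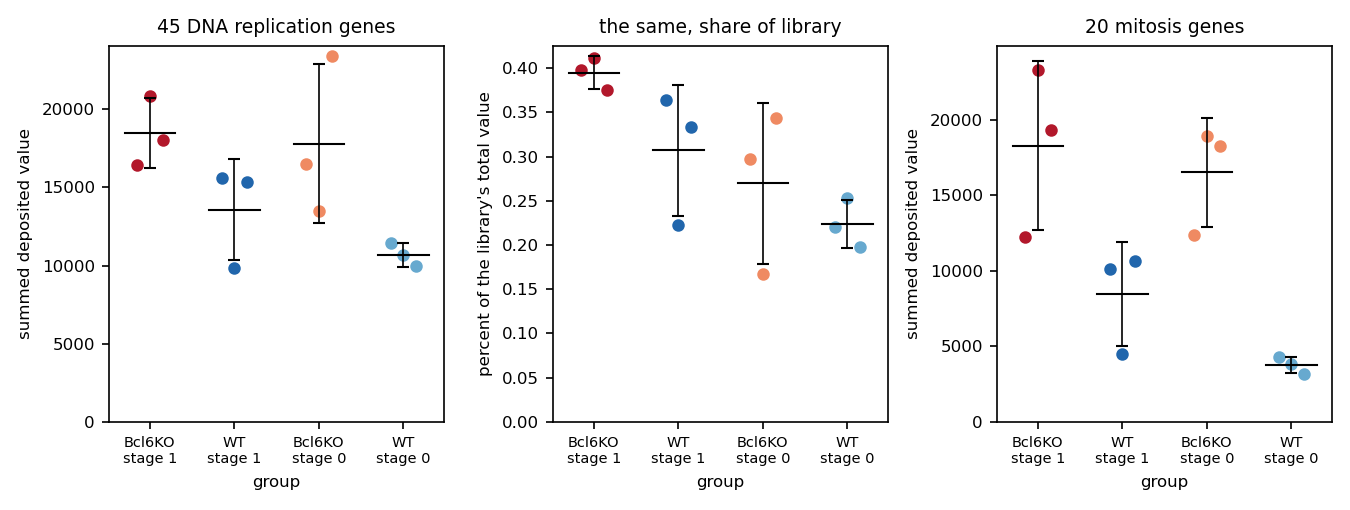
Summed deposited value of the 45 DNA replication genes, the same as a percent of the library's total value, and summed value of 20 mitosis genes, by group; each point is 1 library and bars give the mean and SD of 3. The summed value of the replication genes in Bcl6KO libraries lay above WT at both stages, but as a percent of the total the stage 0 groups overlapped.

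Between genotypes at stage 0, 0 of 45 replication genes passed, where 0.159% of all genes tested did (25 genes). At an unadjusted p under 0.05 there were 9 of 45 (8 higher and 1 lower in Bcl6KO), where 13.9% of all genes reached it, 4.59% higher and 9.28% lower. Libraries did not overlap for 8 genes that were higher in Bcl6KO (Lig1, Mcm4, Pole, Pold1, Orc2, Rrm1, Tyms and Tk1), where 4.7% of all genes had that pattern, and for 1 that was lower, Orc1, where 7.68% had it. The median log2 fold change of the 45 was 0.42, beside -0.25 for all genes. Scaled to library totals it was -0.05 beside -0.69 (the other scalings were the deposited one, totals without Sp100 and quantiles), so the sign of the median turned with the scaling. Its distance from all genes was 0.67 as deposited, 0.64 with totals, 0.65 with totals without Sp100 and 0.40 with quantiles, and it was 0.96 or 0.42 when library 2 or library 3 of Bcl6KO stage 0 was left out. Of the 45, 21 were above 0 and 8 below 0 under all 4 scalings, and 16 changed sign between them. Scaled to totals, the role medians were below 0 (-0.35 to -0.03) except for MCM2-7 (0.01) and nucleotide supply (0.54).

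At stage 1, 0 of 45 passed and 0 of all genes did (0%), with 1 of 45 (Lig1) and 2.87% of all genes at an unadjusted p under 0.05. Libraries did not overlap for 6 genes that were higher in Bcl6KO (Gmnn, Pola2, Pole, Rpa1, Rrm2 and Tyms), where 6.03% of all genes had that pattern, and for 0 that were lower, where 6.79% had it. The median log2 fold change was 0.38, beside -0.05 for all genes, and it was between 0.31 and 0.34 under the other 3 scalings, with 33 genes above 0 under all 4. Its distance from all genes was 0.43, and 0.52 without WT stage 1 library 1 or 3. Without WT stage 1 library 2 the distance was 0.23, with a median of 0.19 and 28 of 45 genes above 0. Over both stages 0 of 45 passed, where 0.0508% of all genes did (8 genes), with 7 of 45 and 10% of all genes at an unadjusted p under 0.05. For the difference of the genotype effect between stages 0 of 45 and 0 of all genes passed (0%), with 1 of 45 and 5.98% of all genes at an unadjusted p under 0.05.

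Between stages in Bcl6KO, 0 of 45 passed, where 2.21% of all genes did (348 genes). At an unadjusted p under 0.05 there were 3 of 45 (Orc1, Mcm10 and Rpa1) and 16.8% of all genes, and libraries did not overlap for 5 genes that were higher at stage 1 (Mcm10, Cdc6, Orc1, Pole and Rpa1), where 11.1% of all genes had that pattern, and for 0 that were lower, where 5.95% had it. In WT, 0 of 45 passed, where 0.89% of all genes did (140 genes), with 4 of 45 and 10.3% of all genes at an unadjusted p under 0.05. Libraries did not overlap for 8 genes higher at stage 1 in WT (Mcm4, Mcm10, Gins2, Orc2, Prim1, Pole, Rrm2 and Tk1), where 11.4% of all genes had that pattern, and for 1 that was lower, Pola2, where 9.37% had it. Over both genotypes, 0 of 45 passed, where 4.76% of all genes did (749 genes), with 9 of 45 and 19.3% of all genes at an unadjusted p under 0.05. The median log2 fold change of the 45 genes was 0.32 in Bcl6KO and 0.47 in WT, beside 0.29 and 0.10 for all genes, a distance of 0.03 in Bcl6KO and 0.37 in WT. In Bcl6KO that distance was 0.31 with quantiles, 0.29 without Bcl6KO stage 0 library 3, 0.16 without Bcl6KO stage 1 library 1, -0.09 without Bcl6KO stage 0 library 2 and -0.11 with library weights, so its sign is not settled. In WT it was 0.19 without WT stage 0 library 3, 0.24 and 0.22 without WT stage 1 library 1 or 3 and 0.61 without WT stage 1 library 2. The 2 stage comparisons share no libraries with each other, but each shares its libraries with the genotype comparisons.

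**Figure D2:**
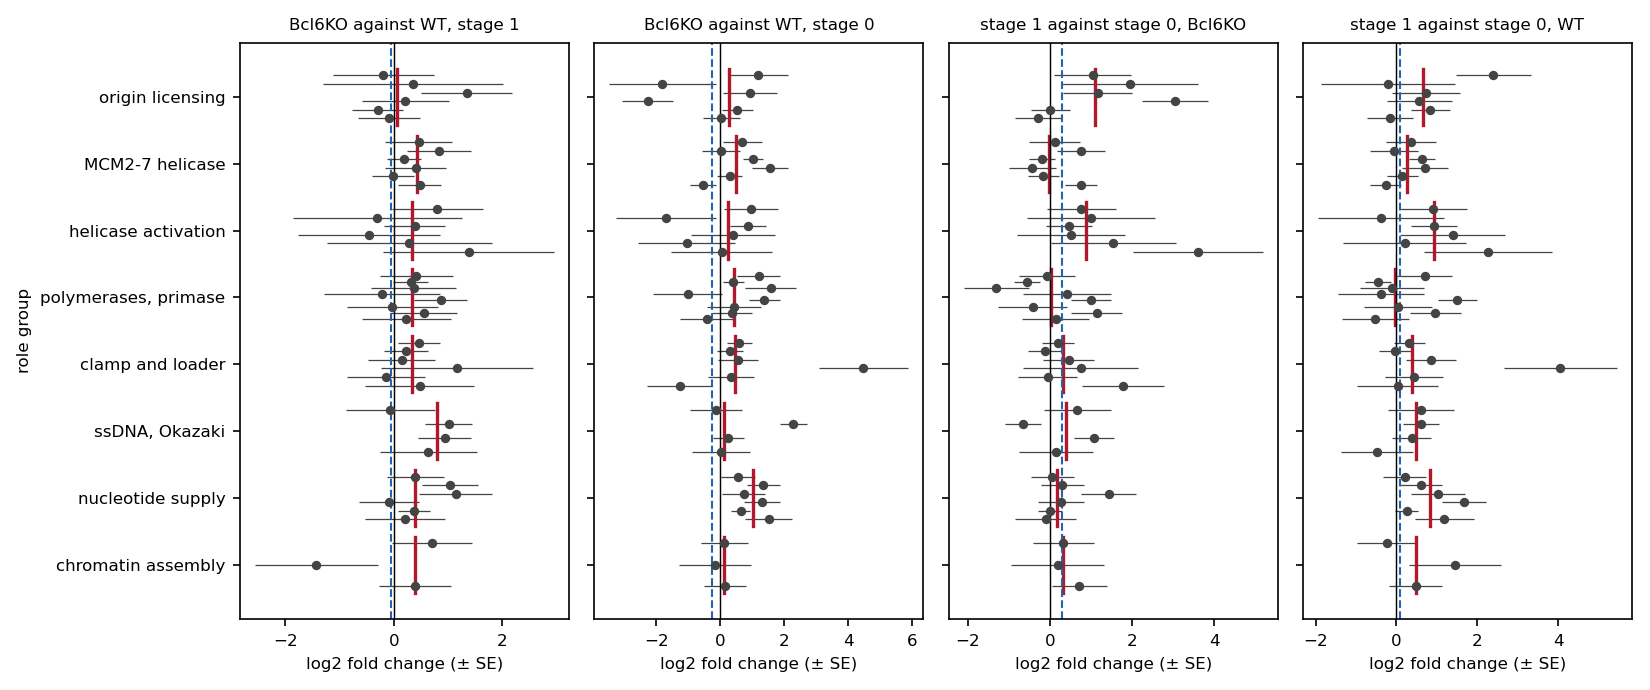
Log2 fold changes of the 45 genes with their SE (points and bars), by role group, in the 4 comparisons of 2 groups; the red line is the role's median, the dashed blue line the median of all 15739 genes tested. Between genotypes at stage 0 the nucleotide supply genes all lie above 0, Orc1 (-2.27) is lowest and Rfc3 (4.48) highest.

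The median coefficient of variation within a group was 31.9% in Bcl6KO stage 1, 33.3% in WT stage 1, 63.7% in Bcl6KO stage 0 and 43.8% in WT stage 0. Bcl6KO stage 0 library 2 held the lowest value of its group for 29 of the 45 genes, had 4 of them at 0 and 8 under about 10 reads. In WT stage 1, library 2 held the lowest value for 31 of the 45 genes.

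**Figure D3:**
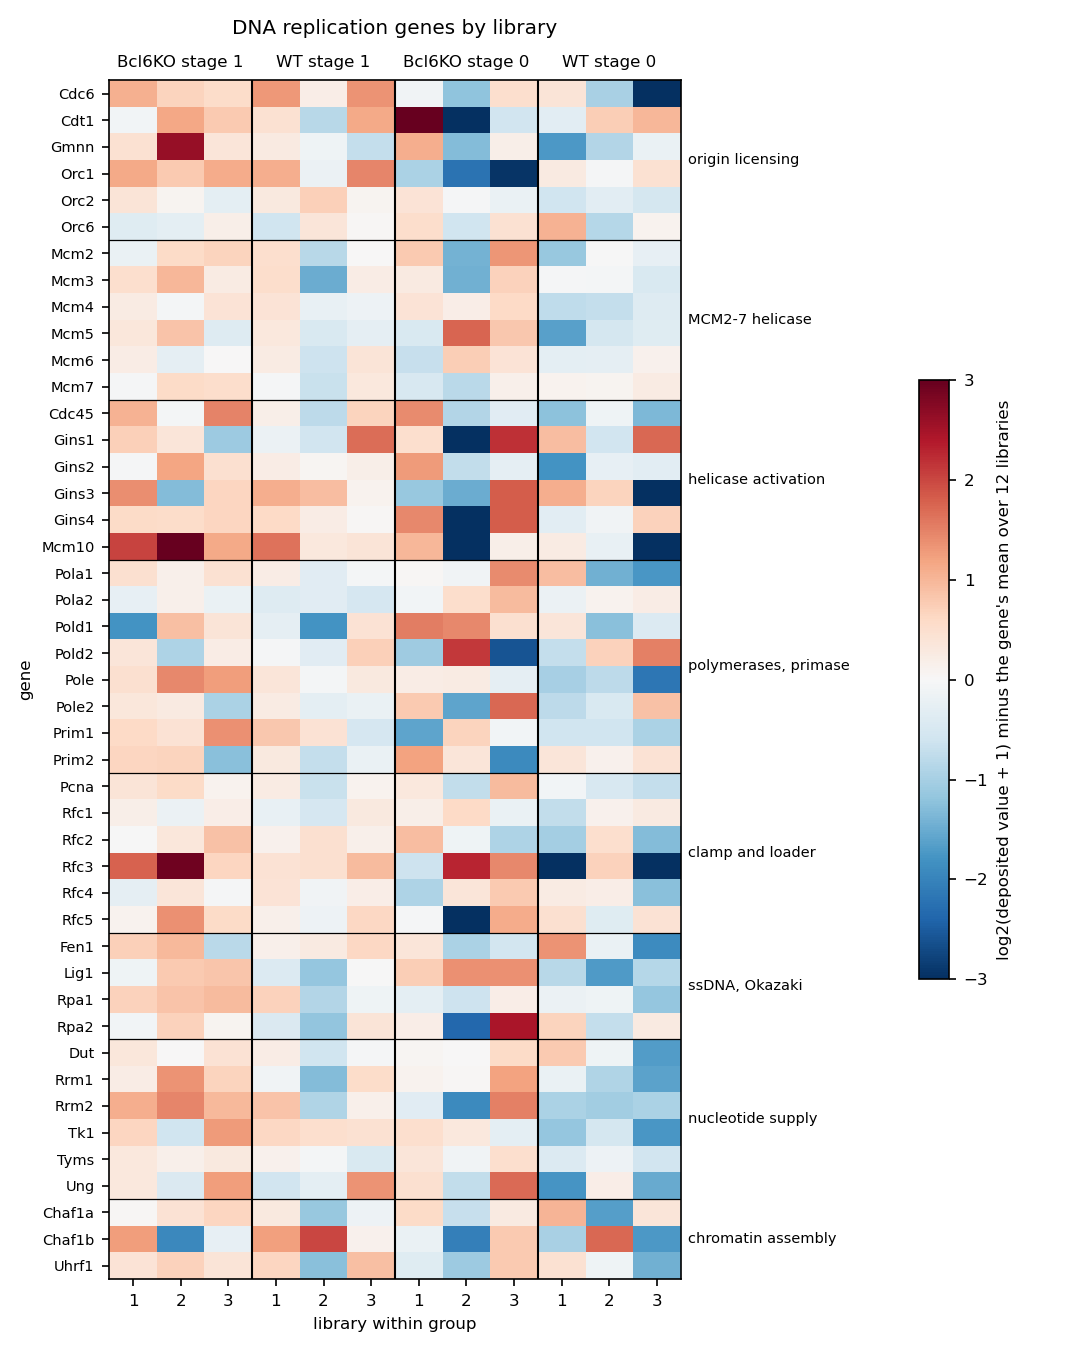
Each of the 45 genes (rows, by role) in each of 12 libraries (columns), coloured by log2(deposited value + 1) minus the gene's mean over all 12 libraries, with the scale ending at 3 in either direction. WT stage 0 is mostly blue and Bcl6KO stage 1 mostly red, and Bcl6KO stage 0 library 2 has 4 genes at 0, in the darkest blue.

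Levels per kb spanned 48-fold on the mean over 12 libraries. Pcna, the sliding clamp that tethers the polymerases, was highest at 632 per kb of exon, followed by Rrm2 at 236 and Mcm6 at 217. Mcm10, a factor that helps the loaded helicase to start, was lowest at 13.2 per kb, next to Chaf1a at 14.6, Chaf1b at 15.5 and Orc1 at 17.8. The highest gene per kb in each role was Orc6 for licensing, Mcm6 for the helicase, Gins2 for its activation, Pola2 for polymerases and primase, Pcna for clamp and loader, Lig1 for single strands and Okazaki fragments, Rrm2 for nucleotides and Uhrf1 for chromatin.

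**Figure D4:**
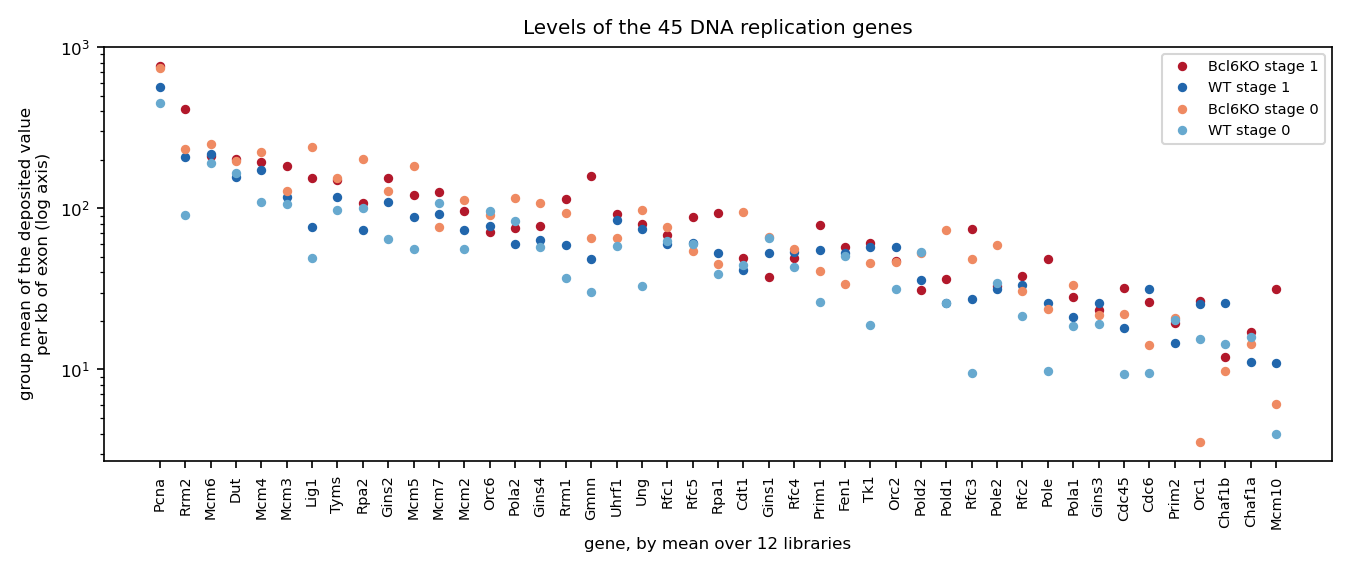
Group means of the deposited value per kb of exon (log axis) for the 45 genes, ordered by their mean over 12 libraries, with 1 colour per group. Pcna stands highest at a mean of 632 per kb and Mcm10 lowest at 13.2.

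Origin licensing was represented by 6 genes, the origin recognition subunits Orc1, Orc2 and Orc6, the loaders Cdc6 and Cdt1 and the Cdt1 inhibitor Gmnn (geminin). Orc1, the largest ATPase subunit of the origin recognition complex, had 100, 79 and 99 in Bcl6KO stage 1 and 97, 40 and 127 in WT stage 1. It had 23, 9 and 5 in Bcl6KO stage 0 and 55, 44 and 63 in WT stage 0. The Bcl6KO stage 0 libraries were therefore the lowest of all 12, and libraries 2 and 3 rest on about 3 reads each. In Bcl6KO cells the log2 fold change of stage 1 against stage 0 was 3.04 (SE 0.81, limma adjusted p = 0.0696), and at stage 0 the log2 fold change of Bcl6KO against WT was -2.27 (SE 0.81, limma adjusted p = 0.235), or -1.33 with quantiles. The stage difference in Bcl6KO passed with values scaled to library totals (3.52, limma adjusted p = 0.036) and without Bcl6KO stage 0 library 1 (3.59, limma adjusted p = 0.0261), with adjusted p up to 0.485 over 23 alternatives. The genotype difference itself differed by 2.49 between stages (SE 1.14, limma adjusted p = 0.817). Orc1 shares 10.8% of its exonic bases with an antisense gene, Gm12743, and reads of the pair cannot be told apart unless counted by strand.

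Cdc6 had 168, 128 and 117 in Bcl6KO stage 1 and 199, 92 and 204 in WT stage 1, and 74, 34 and 113 in Bcl6KO stage 0 and 104, 40 and 5 in WT stage 0. Its stage difference over both genotypes was 1.72 on the log2 scale (SE 0.66, limma adjusted p = 0.166). Orc6, the subunit of the complex highest per kb here, had 149, 159 and 220 in Bcl6KO stage 1 and 127, 250 and 197 in WT stage 1. It had 281, 128 and 266 in Bcl6KO stage 0 and 400, 106 and 207 in WT stage 0, so all 4 groups overlapped. Cdt1 had 829 in 1 Bcl6KO stage 0 library and 0 and 63 in the other 2, the widest relative spread of any of the 45 genes in that group (155%). Orc2 had 224, 165 and 148 in Bcl6KO stage 0 and 111, 135 and 118 in WT stage 0, without overlap (log2 fold change 0.54, SE 0.47, limma adjusted p = 0.667, and 0.05 scaled to totals), and shares 29.8% of its exonic bases with Nif3l1. Gmnn, which keeps Cdt1 from relicensing, was above WT in all 3 Bcl6KO stage 1 libraries (log2 fold change 1.35, SE 0.84, limma adjusted p = 1).

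Promoters of the 4 genes with the lowest p between stages over both genotypes were looked up, since E2F factors are known to drive many replication genes at the G1 to S transition. Of these genes, Pole, Orc1, Mcm10 and Cdc6, the last 3 are printed as the 250 bases before the RefSeq start, 5′ to 3′ on the gene's strand, on GRCm38.p6, at chr4:108579204-108579453 (plus strand), chr2:5012792-5013041 (minus strand) and chr11:98907901-98908150 (plus strand). The annotation used for exon lengths starts Cdc6 at 98907801, so the printed Cdc6 bases lie inside the gene there. It starts Orc1 at 108579423, within the printed bases. Capitals mark E2F letters (TTTCCCGC, TTTGGCGC, TTTCGCGC or TTTGCCGC) and the CCAAT box, on either strand.
Orc1: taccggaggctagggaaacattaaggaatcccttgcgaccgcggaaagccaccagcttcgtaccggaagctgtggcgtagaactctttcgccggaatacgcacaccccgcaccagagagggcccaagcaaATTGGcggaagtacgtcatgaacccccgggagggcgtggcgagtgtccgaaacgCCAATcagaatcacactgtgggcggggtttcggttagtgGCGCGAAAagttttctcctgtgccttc
Mcm10: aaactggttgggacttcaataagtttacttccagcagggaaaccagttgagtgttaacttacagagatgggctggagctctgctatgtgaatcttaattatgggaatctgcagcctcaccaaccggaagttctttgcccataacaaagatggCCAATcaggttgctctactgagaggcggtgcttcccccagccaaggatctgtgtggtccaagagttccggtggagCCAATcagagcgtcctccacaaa
Cdc6: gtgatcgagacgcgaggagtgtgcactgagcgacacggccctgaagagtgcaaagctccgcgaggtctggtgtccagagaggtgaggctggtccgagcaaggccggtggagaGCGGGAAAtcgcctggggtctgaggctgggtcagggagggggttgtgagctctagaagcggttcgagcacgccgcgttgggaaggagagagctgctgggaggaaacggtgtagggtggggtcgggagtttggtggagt
Orc1 had 1 E2F match (TTTCGCGC, minus strand) and 2 CCAAT boxes, with no overlap between them. Mcm10 had 2 CCAAT boxes and no E2F match in these bases, and Cdc6 had 1 E2F match (TTTCCCGC, minus strand) and no CCAAT box.

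Promoters of 37 of the 45 genes were found in the RefSeq table, as 44 windows of 300 bases (250 before and 50 after a start). E2F letters stood in 14 of these 44 windows (31.8%), where 2.26% of all 32851 windows of that length held them. CCAAT boxes stood in 26 of 44 (59.1%), where 37.4% of all windows held one. TTTGAA, the letters of the cell-cycle homology region (CHR) of late cell-cycle genes, stood in 5 of 44 (11.4%), against 17.9% of all windows. TTCCTNGAA, letters taken for BCL6, stood in 1 of 44 (2.27%), against 1.59% of all windows; the match was in 1 of 3 windows of Lig1. These matches were searched on both strands and describe letters only, with no test.

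The 6 MCM2-7 subunits form the ring helicase that opens the double strand. Their summed value was 3836 to 4355 in Bcl6KO stage 1 and 2134 to 4199 in WT stage 1, and 3413 to 5331 in Bcl6KO stage 0 and 2404 to 3073 in WT stage 0. The stage 0 groups did not overlap on the deposited scale, but did as a share of the library's total (52.1 to 78.4 and 46.3 to 67 per 100000). Mcm4 had 716, 581 and 802 in Bcl6KO stage 1 and 807, 513 and 540 in WT stage 1. It had 806, 695 and 910 in Bcl6KO stage 0 and 357, 366 and 461 in WT stage 0, so the groups did not overlap at stage 0. The log2 fold change at stage 0 was 1.03 (SE 0.32, limma adjusted p = 0.173), or 0.54 with values scaled to library totals. At stage 1 it was 0.19 (SE 0.32, limma adjusted p = 1), and the difference between the 2 was -0.83 (SE 0.45, limma adjusted p = 0.853).

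Mcm6, the subunit highest per kb, had 1141, 808 and 985 in Bcl6KO stage 1 and 1147, 630 and 1278 in WT stage 1, and 607, 1633 and 1284 in Bcl6KO stage 0 and 796, 808 and 1057 in WT stage 0. Its groups overlapped at both stages. Mcm5 had 275, 1265 and 658 in Bcl6KO stage 0 and 120, 262 and 291 in WT stage 0 (log2 fold change 1.54, SE 0.56, limma adjusted p = 0.247), with its highest value of all in Bcl6KO stage 0 library 2. The same library was the lowest of its group for Mcm2 (191), Mcm3 (165) and Mcm7 (242), so the subunits of this 1 complex stood far apart within it.

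Helicase activation was covered by Cdc45, Mcm10 and the 4 GINS subunits. Mcm10 had 184, 449 and 98 in Bcl6KO stage 1 and 140, 55 and 58 in WT stage 1. It had 90, 0 and 50 in Bcl6KO stage 0 and 53, 38 and 1 in WT stage 0. At each genotype all stage 1 libraries lay above all stage 0 libraries, and the log2 fold change of stage 1 against stage 0 was 3.60 in Bcl6KO (SE 1.58, limma adjusted p = 0.265) and 2.26 in WT (SE 1.58, limma adjusted p = 0.727). In each genotype 1 stage 0 library was at 0 or 1: without Bcl6KO stage 0 library 2 the value in Bcl6KO was 1.57.

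Gins2 had 395, 926 and 566 in Bcl6KO stage 1 and 474, 423 and 456 in WT stage 1, and 988, 242 and 334 in Bcl6KO stage 0 and 117, 345 and 328 in WT stage 0. All 3 WT stage 1 libraries were above all WT stage 0 libraries (log2 fold change 0.93, SE 0.56, limma adjusted p = 0.658). It shares 67.3% of its exonic bases with Gse1, so its values are uncertain. Gins1, Gins4 and Mcm10 were at 0 in Bcl6KO stage 0 library 2, as was Cdt1. The summed value of the 6 genes was 994 to 1612 in Bcl6KO stage 1 and 703 to 917 in WT stage 1, which did not overlap, and 287 to 1512 in Bcl6KO stage 0 and 433 to 634 in WT stage 0, which did. As a share of the total the stage 1 groups overlapped as well (21.3 to 31.8 and 16 to 21.4 per 100000).

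Polymerases and primase gave the gene with the lowest p of the 45 between stages in WT and over both genotypes. Pole, the catalytic subunit of polymerase epsilon on the leading strand, had 351, 687 and 595 in Bcl6KO stage 1 and 322, 239 and 307 in WT stage 1. It had 292, 296 and 207 in Bcl6KO stage 0 and 125, 146 and 55 in WT stage 0. Bcl6KO lay above WT at both stages and stage 1 above stage 0 in both genotypes, without overlap. Over both genotypes its stage difference was 1.25 on the log2 scale (SE 0.34, limma adjusted p = 0.0513), and over both stages its genotype difference was 1.12 (SE 0.34, limma adjusted p = 0.265). The stage difference passed when values were scaled to library totals (1.57, limma adjusted p = 0.0186) or to totals without Sp100 (1.43, limma adjusted p = 0.0282) or quantile normalized (1.38, limma adjusted p = 0.0276). It also passed without WT stage 0 library 2 (1.39, limma adjusted p = 0.0371), Bcl6KO stage 0 library 1 (1.29, limma adjusted p = 0.0469) or Bcl6KO stage 0 library 2 (1.30, limma adjusted p = 0.0443), and the adjusted p ran from 0.0186 to 0.136 over 22 alternatives.

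Pola2, the regulatory subunit of polymerase alpha, had the opposite sign between stages. It had 561, 742 and 576 in Bcl6KO stage 1 and 626, 960 and 1286 in Bcl6KO stage 0, and 510, 526 and 467 in WT stage 1 and 590, 713 and 774 in WT stage 0. Its stage difference over both genotypes was -0.51 (SE 0.23, limma adjusted p = 0.243). The 3 WT stage 1 libraries were below the 3 WT stage 0 libraries, the 1 gene of the 45 with this pattern. Prim1, the catalytic primase subunit, had 293, 225 and 117 in WT stage 1 and 110, 110 and 85 in WT stage 0, without overlap. Pold1, the catalytic subunit of polymerase delta, had 440, 413 and 211 in Bcl6KO stage 0 and 196, 63 and 115 in WT stage 0, also without overlap (log2 fold change 1.58, SE 0.79, limma adjusted p = 0.395). The summed value of the 8 genes did not overlap between genotypes at either stage, with 1823 to 2450 in Bcl6KO stage 1 and 1366 to 1765 in WT stage 1, and 2024 to 2717 in Bcl6KO stage 0 and 1373 to 1601 in WT stage 0. As a share of the library's total, the stage 0 ranges did overlap (31.5 to 40 and 30.8 to 32.6 per 100000).

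Among clamp and loader genes, Pcna had 1869, 2109 and 1534 in Bcl6KO stage 1 and 1673, 895 and 1528 in WT stage 1. It had 1761, 844 and 2763 in Bcl6KO stage 0 and 1349, 1013 and 862 in WT stage 0. The groups overlapped at both stages, and its log2 fold changes between genotypes were 0.47 at stage 1 (SE 0.39) and 0.60 at stage 0 (SE 0.39), the second 0.11 scaled to totals. Rfc3, a small loader subunit, had 219, 485 and 100 in Bcl6KO stage 1 and 85, 88 and 123 in WT stage 1, and 41, 314 and 172 in Bcl6KO stage 0 and 1, 102 and 0 in WT stage 0. Its fitted log2 fold change at stage 0 was 4.48 (SE 1.40, limma adjusted p = 0.179), a value set by the 2 WT stage 0 libraries at 0 and 1, and the groups overlapped. Without WT stage 0 library 2, the 1 with 102, it passed (6.54, limma adjusted p = 0.0389, and 0.0389 to 0.857 over 23 alternatives). The other loader subunits, Rfc1, Rfc2, Rfc4 and Rfc5, had log2 fold changes between -0.15 and 0.48 at stage 1 and between -1.27 and 0.55 at stage 0, none past the threshold. The summed value of the 6 clamp and loader genes was 2841 to 3879 in Bcl6KO stage 1 and 1788 to 2776 in WT stage 1, without overlap, and 2013 to 4016 in Bcl6KO stage 0 and 1756 to 2092 in WT stage 0, with overlap. As a share of the total it overlapped at stage 1 too (59.1 to 76.5 and 40.6 to 61.8 per 100000).

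Lig1, the ligase that joins Okazaki fragments on the lagging strand, gave the lowest p between genotypes at each stage and over both. It had 408, 764 and 795 in Bcl6KO stage 1 and 338, 200 and 440 in WT stage 1. It had 741, 1163 and 1155 in Bcl6KO stage 0 and 250, 136 and 247 in WT stage 0. At stage 0 every Bcl6KO library was above every WT library, and at stage 1 1 Bcl6KO library lay within the WT range. The log2 fold change of Bcl6KO against WT was 2.29 at stage 0 (SE 0.44, limma adjusted p = 0.0558), 1.02 at stage 1 (SE 0.44, limma adjusted p = 1) and 1.65 over both stages (SE 0.31, limma adjusted p = 0.0928). Without Bcl6KO stage 0 library 1, the lowest of its group, the stage 0 difference passed (2.51, limma adjusted p = 0.0177), as did the difference over both stages (limma adjusted p = 0.0426). Over all alternatives the adjusted p ran from 0.0177 to 0.857 at stage 0 and from 0.0426 to 0.328 over both stages.

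Rpa1, the large subunit of the protein that coats single strands, had 470, 525 and 558 in Bcl6KO stage 1 and 468, 156 and 264 in WT stage 1, and 237, 188 and 331 in Bcl6KO stage 0 and 256, 265 and 129 in WT stage 0. The 3 Bcl6KO stage 1 libraries were the highest of the 12, the lowest of them by 2 over a WT stage 1 library. Its log2 fold change at stage 1 was 0.94 (SE 0.49, limma adjusted p = 1), and in Bcl6KO cells the stage difference was 1.07 (SE 0.49, limma adjusted p = 0.283). Rpa2 reached 1461 in 1 Bcl6KO stage 0 library, beside 305 and 51 in the other 2. Fen1, the flap nuclease, shares 84.2% of its exonic bases with another gene, Gm10143, and is left without a comparison. The summed value of Lig1, Fen1, Rpa1 and Rpa2 was 1293 to 1916 in Bcl6KO stage 1 and 593 to 1203 in WT stage 1, and 1411 to 3015 in Bcl6KO stage 0 and 649 to 1181 in WT stage 0, without overlap at either stage. As a share of the total it did not overlap at stage 1 (31.3 to 37.8 and 13.5 to 26.2 per 100000) and did at stage 0 (18.1 to 44.3 and 14.4 to 22.8). Among these genes Lig1 alone did not overlap between genotypes at stage 0. Rpa1 and Rpa2 overlapped there, with log2 fold changes of 0.25 and 0.02, and the sum includes Fen1.

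**Figure D5:**
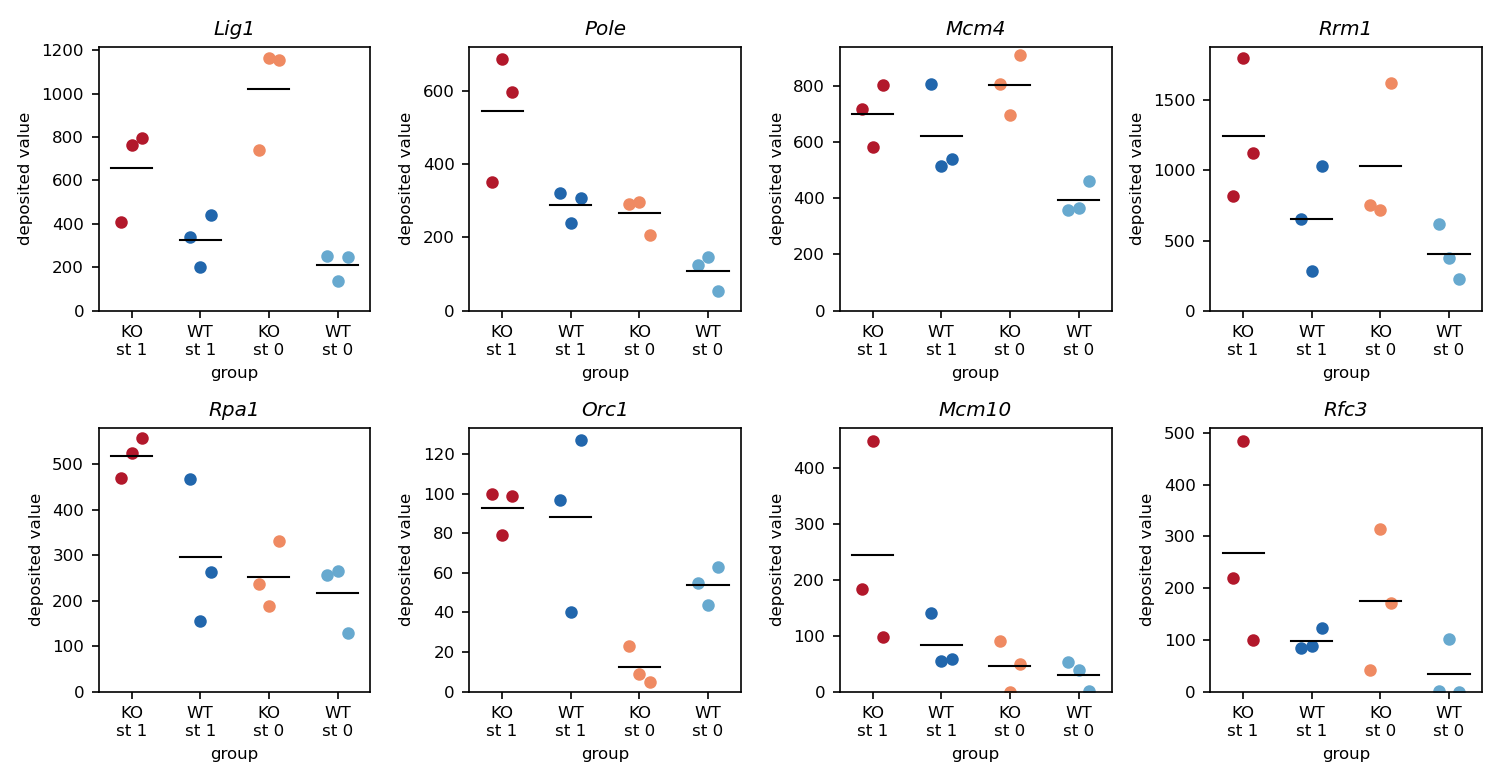
Deposited values of 8 replication genes in each library (points) with group means (lines), in Bcl6KO (KO) and WT at stage 1 (st 1) and stage 0 (st 0). Lig1, Pole and Mcm4 separate the genotypes at stage 0, while Orc1 has 23, 9 and 5 in Bcl6KO stage 0.

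The 6 nucleotide supply genes were all above 0 in fold change between genotypes at stage 0, under each of the 4 scalings tried. Their median log2 fold change there was 1.03 on the deposited scale and 0.54 when scaled to library totals, beside -0.25 and -0.69 for all genes. Their summed value was 4039 to 4814 in Bcl6KO stage 1 and 2093 to 3593 in WT stage 1, and 2412 to 5893 in Bcl6KO stage 0 and 1293 to 2324 in WT stage 0. As a share of the library's total, Bcl6KO and WT did not overlap at stage 1 (94.8 to 100 and 47.5 to 79 per 100000) and did at stage 0 (30 to 86.7 and 25.8 to 51.4).

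Rrm1, the large subunit of ribonucleotide reductase, had 818, 1801 and 1126 in Bcl6KO stage 1 and 651, 285 and 1028 in WT stage 1, and 756, 721 and 1625 in Bcl6KO stage 0 and 616, 375 and 229 in WT stage 0. Its genotype difference over both stages was 1.20 on the log2 scale (SE 0.37, limma adjusted p = 0.274). Rrm2, the small subunit, had 1065, 1384 and 980 in Bcl6KO stage 1 and 905, 266 and 556 in WT stage 1, and 394, 131 and 1422 in Bcl6KO stage 0 and 257, 240 and 256 in WT stage 0. At stage 1 all 3 Bcl6KO libraries of Rrm2 were above WT, and at stage 0 Bcl6KO library 2 was below all WT libraries. Without Bcl6KO stage 0 library 3, the highest of its group, the stage difference of Rrm2 in Bcl6KO passed (limma adjusted p = 0.0468, against 0.3 with it). Tk1, which salvages thymidine, had 323, 135 and 497 in Bcl6KO stage 1 and 290, 257 and 166 in Bcl6KO stage 0. It had 317, 290 and 284 in WT stage 1 and 92, 143 and 60 in WT stage 0 (log2 fold change of stage 1 against stage 0 in WT 1.67, SE 0.55, limma adjusted p = 0.234). Tyms, the enzyme that makes thymidylate, was above WT in all 3 Bcl6KO libraries at both stages, with log2 fold changes of 0.38 at stage 1 (SE 0.30) and 0.64 at stage 0 (SE 0.30), the second 0.15 with values scaled to totals. Dut, which removes dUTP, and Ung, which cuts uracil out of DNA and was listed with this group, had log2 fold changes of 0.55 (SE 0.53) and 1.51 (SE 0.74) at stage 0, or 0.06 and 1.02 scaled to totals, with overlapping groups.

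Chromatin assembly was represented by the 2 large subunits of chromatin assembly factor 1 and by Uhrf1, which guides maintenance methylation to new strands. Uhrf1 had 372, 449 and 363 in Bcl6KO stage 1 and 440, 117 and 526 in WT stage 1, and 216, 131 and 485 in Bcl6KO stage 0 and 384, 257 and 102 in WT stage 0. The groups of all 3 genes overlapped in each comparison between genotypes and between stages, and Chaf1a shares 52.5% of its exonic bases with Ubxn6. Their summed value was 585 to 618 in Bcl6KO stage 1 and 366 to 697 in WT stage 1, and 213 to 708 in Bcl6KO stage 0 and 265 to 644 in WT stage 0.

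Other genes of the same pathway were read from 4 lists. Of 38 further replication genes, 1 passed between genotypes at stage 0, where 0.159% of all genes did: Top2a, the topoisomerase that untangles replicated DNA, rose in Bcl6KO. It had 2148, 2636 and 2897 in Bcl6KO stage 1 and 1584, 857 and 1510 in WT stage 1, and 2294, 1753 and 2342 in Bcl6KO stage 0 and 283, 682 and 424 in WT stage 0. The log2 fold change at stage 0 was 2.28 (SE 0.34, limma adjusted p = 0.0342), and it passed in 10 of 23 other settings (limma adjusted p from 0.0147 to 0.551). It did not pass with totals, quantiles, the replicate block, library weights or a fit of the 2 groups alone. It did not pass without WT stage 0 library 1 or 3 or Bcl6KO stage 0 library 3, nor without WT stage 1 library 1 or 3 or Bcl6KO stage 1 library 2 or 3, which enter through the shared spread. It was the 1 gene of the 38 that passed over both stages (1.64, limma adjusted p = 0.0308), where 0.0508% of all genes did. It was also the 1 that passed between stages over both genotypes (0.91, limma adjusted p = 0.0466), where 4.76% of all genes did. These calls held in 7 and 9 of 22 alternatives. The call over both stages was lost under totals, totals without Sp100, quantiles, the replicate block and library weights, and the call between stages with no filter, the block and library weights. Both were lost with Bcl6KO stage 0 libraries 2 and 3 left out together, and each without several single libraries. The median of the 38 at stage 0 was 0.47, beside 0.42 for the 45 genes, and it was -0.01 when scaled to library totals.

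Of 20 mitosis genes, 1 passed between genotypes at stage 0, where 0.159% of all genes did: Mki67, a nuclear protein of cycling cells. It rose to 7468, 11868 and 9111 in Bcl6KO stage 0, against 2220, 1759 and 1715 in WT stage 0 (log2 fold change 2.30, SE 0.38, limma adjusted p = 0.0418), and it passed in 9 of 23 other settings (limma adjusted p from 0.0118 to 0.857). It did not pass with quantiles, the replicate block, library weights or a fit of the 2 groups alone. It did not pass without any 1 of the WT stage 0 libraries or Bcl6KO stage 0 library 2 or 3, nor without the same 4 stage 1 libraries as Top2a. In that list 12 of 20 genes had an unadjusted p under 0.05, all higher in Bcl6KO, where 4.59% of all genes reached it in that direction. The median log2 fold change was 2.25 at stage 0 and 0.95 at stage 1, above those of the 45 replication genes (0.42 and 0.38). Scaled to library totals it was 1.76 at stage 0. Mki67 was also the 1 of the 20 that passed over both stages (log2 fold change 1.80, limma adjusted p = 0.0308), where 0.0508% of all genes did. That call held in 9 of 22 alternatives (limma adjusted p from 0.0227 to 0.192). It was lost with totals, the replicate block and library weights, and without any 1 WT library, among others. The summed mitosis value was 12239 to 23315 in Bcl6KO stage 1 and 4465 to 10685 in WT stage 1, and 12382 to 18951 in Bcl6KO stage 0 and 3193 to 4284 in WT stage 0. Bcl6KO stage 0 library 2 held the highest mitosis sum of its group (18951) and the lowest replication sum (13465). Mki67 alone was 11868 of the 18951, so the rank of that mitosis sum rests mostly on 1 gene.

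Of all genes, 2.21% passed between stages in Bcl6KO, 0.89% in WT and 4.76% over both genotypes. Of 17 further nucleotide metabolism genes, 1 passed in each of these: Samhd1, which breaks down deoxynucleotide triphosphates, rose between stages. It had 1207, 1682 and 1462 in Bcl6KO stage 1 and 282, 567 and 166 in Bcl6KO stage 0 (log2 fold change 2.26, SE 0.45, limma adjusted p = 0.0212), and 1493, 873 and 1973 in WT stage 1 and 229, 343 and 414 in WT stage 0 (2.10, SE 0.45, limma adjusted p = 0.0477). The WT difference passed in 10 of 23 other settings and was lost without any 1 library of either WT group, Bcl6KO stage 0 library 1 or any 1 Bcl6KO stage 1 library, and the Bcl6KO difference passed in 18 of 23 and was lost without any 1 Bcl6KO stage 1 library. Over both genotypes it passed in all 22 other settings (2.18, limma adjusted p = 0.00176). None of the 17 passed between genotypes at stage 0, where their median was -0.10. Of 25 tested regulators of the G1 to S transition, 2 passed between stages in Bcl6KO, where 2.21% of all genes did, and 0 in WT, where 0.89% did. For neither did the stage difference differ between genotypes past the threshold (limma adjusted p = 0.736 for E2f7 and 0.689 for Cdkn1a). E2f7 was the 1 of the 25 that also passed over both genotypes (3.56, limma adjusted p = 0.0183), where 4.76% of all genes did. E2f7, an E2F factor that represses, had 128, 69 and 135 in Bcl6KO stage 1 and 2, 0 and 2 in Bcl6KO stage 0 (log2 fold change 5.69, SE 1.11, limma adjusted p = 0.0206), and Cdkn1a, the cyclin-dependent kinase inhibitor p21, had 27, 10 and 15 in Bcl6KO stage 1 and was listed at 0 in the other 9 libraries (limma adjusted p = 0.0454). Cdkn1a entered the test only through the 3 libraries where it is high, so its call supports nothing further. In WT, E2f7 had 150, 25 and 119 at stage 1 and 126, 8 and 20 at stage 0. E2f7 was lost without any 1 Bcl6KO stage 1 library and passed in 16 of 23 other settings, and Cdkn1a was lost without any 1 library of WT or of Bcl6KO stage 0 and passed in 5 of 20. Ttk, a mitotic checkpoint kinase, also passed in Bcl6KO, with 139, 336 and 172 at stage 1 and 33, 6 and 18 at stage 0 (log2 fold change 3.61, SE 0.88, limma adjusted p = 0.0493), and in 7 of 23 other settings. It was lost without Bcl6KO stage 0 library 2 or 3, WT stage 0 library 1 or any 1 stage 1 library.

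Markers of other cells differed between some of these groups. Summed double-positive thymocyte markers (10 genes) were 2252 to 4904 in Bcl6KO stage 1 and 1035 to 2948 in WT stage 1, and 8099 to 8721 in Bcl6KO stage 0 and 3655 to 9391 in WT stage 0, and Rag2 was at 0 in WT stage 1. At stage 1 most of this sum was Cd4 (2091, 4542 and 4299 in Bcl6KO and 1841, 934 and 2816 in WT). Rag1 was 0 to 1 in Bcl6KO and 1 to 24 in WT at that stage. Arpp21 went the other way, with 76, 250 and 79 in Bcl6KO and 4, 1 and 1 in WT (log2 fold change 5.41, limma adjusted p = 0.113). Of the 10 genes, 6 had a log2 fold change above 0 between genotypes at stage 1 and 4 below. The sum therefore does not stand for the class there. Gamma-delta T cell markers (7 genes) were 3859 to 5572 in Bcl6KO stage 1 and 7405 to 19349 in WT stage 1, and 54 to 937 in Bcl6KO stage 0 and 106 to 5565 in WT stage 0. The 5565 was library 2 of WT stage 0, whose other libraries had 106 and 696. At stage 1 most of this sum was Tcrg-C1, Tcrg-C2 and Tcrg-C4. Trdc, the delta chain, had 4, 1 and 88 in Bcl6KO stage 1 and 2, 1 and 1 in WT stage 1. It had 223, 0 and 377 in Bcl6KO stage 0 and 2, 62 and 14 in WT stage 0, so Trdc did not follow this sum. Sox13 had 66, 28 and 36 in Bcl6KO stage 1 and 257, 689 and 550 in WT stage 1. Blk had 4, 55 and 1 in Bcl6KO stage 1 and 146, 323 and 118 in WT stage 1. Of the 7 genes, 6 had a log2 fold change of Bcl6KO against WT below 0 at each stage and 1 above 0. Whether this sum stands for its class was not tested. Stromal markers (9 genes) reached 8459 in Bcl6KO stage 0 library 2, against 1087 and 1886 in the other 2 libraries of that group, with Krt5, Krt8 and Pdgfra at 0 in every group. Pecam1 alone was 7598 of the 8459, so that sum rests mostly on 1 gene. Col1a1 was at 242 in the same library and at most 16 in any other. B cell markers (8 genes) were at most 1126, myeloid markers (10 genes) at most 1262 and erythroid markers (7 genes) at most 117 in any library. The part of these cells in the replication values was not tested.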

How the data were processed

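RNA was prepared with a QIAGEN kit and made into libraries with the NuGEN Ovation Ultralow system, per the labels' protocols. The submitters' processing notes name bcl2fastq, TopHat2, Bowtie2, DESeq and build mm10; no source used here gives the annotation or whether strand was used. The deposited values are whole numbers per Ensembl gene, but their signal is reads multiplied by 1 factor per library and rounded: low values fall on a regular step in 11 of 12 libraries, and the median ratio to a common reference is 1.0379 to 1.0447 in all 12. They are therefore not read counts, and the planned test for counts was replaced.

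From these values, log2(value + 1) was fitted with limma 3.58.1 (R 4.3.3; trended, robust moderation) for the 15739 genes at 10 or more in at least 3 of 12 libraries. One model held 4 group means, with contrasts between genotypes and between stages and Benjamini-Hochberg adjustment over all genes. The model was tested on simulated data, where it missed most planted changes in each comparison, nearly all of the smallest ones, and where the share of false calls was above the nominal rate. Genes that did not pass may therefore differ, and calls are tentative. The members and lists were chosen with earlier results of these data known. Genes described library by library were those with the 3 lowest p in a comparison and the highest per kb in each role; others named were chosen after their values were seen. No pairing by replicate number was seen: same-numbered libraries correlated between -0.071 and 0.112 in their deviations from group means. With 3 libraries a group this cannot show that they were handled apart. No 2 libraries held the same values. Alternatives covered scaling, pseudocount, filter, weights, block, 2-group fits and leaving out libraries.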

Additional observations from a re-analysis of the deposited data

How the results depend on the processing

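The 45 genes were refitted under 23 alternatives for comparisons of 2 groups and 22 for the others. Of them 1 passed, against 0, between stages in Bcl6KO with values scaled to library totals (Orc1), and 1 between stages over both genotypes with values scaled to totals with or without Sp100 and quantile normalized (Pole), and with Bcl6KO stage 0 libraries 2 and 3 left out (Prim1). Scaled to totals, the median log2 fold change was -0.05 between genotypes at stage 0, 0.85 between stages in Bcl6KO and 0.26 for the stage dependence. The cause was not tested, beyond that totals moved the median of all genes at stage 0 to -0.69.

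Leaving out 1 library at a time gave 0 to 1 genes past the threshold between genotypes at stage 0 and over both stages and between stages in each genotype, 0 to 2 between stages over both genotypes, and 0 at stage 1 and for the stage dependence. Calls came without Bcl6KO stage 0 library 1 (Lig1, Orc1, Pole), library 2 (Pole) or library 3 (Rrm2), or without WT stage 0 library 2 (Rfc3, Pole). Medians ran from 0.18 to 0.82 between genotypes at stage 0, 0.19 to 0.48 at stage 1 and 0.34 to 0.61 over both, from 0.26 to 0.70 between stages in WT, 0.09 to 0.58 in Bcl6KO and 0.23 to 0.59 over both, and from -0.49 to 0.02 for the stage dependence. None of the 3 genes with the lowest p in each comparison changed sign in its comparison under these alternatives.

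Counts over all genes moved more: 0 to 456 between genotypes at stage 0, 0 to 5 at stage 1, 0 to 82 over both stages, 12 to 810 between stages in Bcl6KO, 33 to 329 in WT and 415 to 1153 over both genotypes, and 0 to 3 for the stage dependence, against 25, 0, 8, 348, 140, 749 and 0. With the replicate number as a block, 0 of the 45 passed in each comparison and the median at stage 0 stayed at 0.42, while 6 of all genes passed there, against 25. The labels give the libraries of a block only a shared number. Scaling to totals, quantile normalization, pseudocounts 0.5 and 5 and the pair of libraries left out were chosen after seeing the data. The planned count models could not be run, since the values are not counts. Bcl6KO stage 0 libraries 2 and 3 hold the fewest reads, so low genes are least certain there.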
